A study of Rattus norvegicus with 6 samples.

Results

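The dopamine receptors are the genes Drd1, Drd2, Drd3 and Drd5, found by their symbols among the features of each count matrix, and they make up 4 of 32883 features. Each symbol matched 1 feature. Their unique molecular identifier (UMI) counts, which count captured RNA molecules, were read in every nucleus of 6 single-nucleus RNA-seq libraries, and the nuclei were classed by other genes. No receptor took part in the clustering or stood on a marker list.

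Dopamine receptors are G protein-coupled receptors of 2 families. The D1-like receptors, encoded by Drd1 and Drd5, couple to stimulatory G proteins and raise cyclic AMP, whereas the D2-like receptors, encoded by Drd2 and Drd3 among others, couple to inhibitory G proteins and lower it. In the striatum most neurons are medium spiny neurons (MSN), the projection neurons, and their textbook division into D1 and D2 types follows Drd1 and Drd2. Drd2 is also known in cholinergic interneurons, and Drd3 is known for its concentration in the ventral striatum, above all in the granule cells of the islands of Calleja.

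The tissue was the shell of the nucleus accumbens, a part of the ventral striatum tied to reward, from untreated Long-Evans rats. There were 3 female libraries (female pools 1 to 3) and 3 male libraries (male pools 1 to 3). Each was made from frozen punches of 4 animals of 1 sex, pooled before nuclei were isolated, 24 animals in all, pair housed until 90 to 100 days of age. The replicates are therefore pools, and a p-value measures the spread between pools and not between rats.

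After filtering, 34362 nuclei with 187456986 UMIs remained, between 10752662 and 77333563 UMIs per library. The wording of the labels separates female pool 3 and male pool 1 (set A) from the other 4 libraries (set B), with no stated meaning. The sets stood apart in the data: mitochondrial UMIs exceeded 5% in 1.55% and 2.28% of barcodes of the set A libraries and in 13.1% to 40.7% of those of set B, and 1622 and 413 of 2040 glutamatergic-like nuclei came from female pool 3 and male pool 1. Libraries shared 3 to 52 barcodes in pairs, at most 0.645% of the smaller library. The 41 clusters gave 18 named classes with 24668 nuclei (71.8%), 10 unnamed clusters with 7257 nuclei and 5 mixed clusters with 2437 nuclei, and 16 classes or unnamed clusters had at least 20 nuclei in each library. MSN markers were present, as the label of the tissue implies, but septal-like, pallidal-like and glutamatergic-like nuclei were found as well.

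The class names rest on marker lists without dopamine receptors and carry the ending "-like". D1-type MSN-like nuclei (3456) were named from genes such as Pdyn and Tac1, which encode neuropeptide precursors, and D2-type MSN-like nuclei (3143) from Adora2a, an adenosine receptor, and Penk, the enkephalin precursor. Granule-like nuclei (1193) were named from Rreb1, Foxp2, Cpne4, Rxfp1 and Bmp3. Cluster 11 (1589 nuclei) had 4 of 4 markers of eccentric MSN above the other MSN clusters. It also had 4 of 4 markers of the Chst9/Grm8-like class above them, and its leading genes held 1 granule marker, Foxp2, and no marker of eccentric MSN, so it is called by its number. Cluster 18 (702 nuclei) had 6 of 6 general MSN markers, was led by activity-regulated genes such as Nr4a3, Fosb, Arc and Npas4, and stayed unnamed between the D1 and D2 types.

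The receptors were captured unevenly. In all nuclei there were 1690 UMIs of Drd1 in 1525 nuclei, 30403 UMIs of Drd2 in 6489 nuclei, 12163 UMIs of Drd3 in 5839 nuclei, and 2 UMIs of Drd5 in 2 nuclei. These totals are not set against each other as levels, because capture at the 3' end differs between genes and no lengths in the build of the files were used. D2-type nuclei held 49.6% of the Drd2 UMIs. Drd1 UMIs were shared out more widely, with 31.1% in D1-type nuclei, 12.2% in cluster 11 and 7.40% in the unnamed cluster 3, and Drd3 UMIs lay mainly in D1-type (29.4%) and granule-like nuclei (16.2%). The mixed clusters, which carry markers of more than 1 class, held 13.5% of the Drd1, 14.6% of the Drd2 and 17.4% of the Drd3 UMIs and are left out of the class comparisons.

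Drd5, the second D1-like receptor, was at the limit of what these libraries can show. Its 2 UMIs fell in 1 pallidal-like nucleus of female pool 3 and 1 pallidal-like nucleus of male pool 3. It had 0 UMIs in the 3456 D1-type nuclei, which allows a share of nuclei with a UMI of up to 0.0868%, and 0 UMIs in the 3143 D2-type nuclei, which allows up to 0.0955%. These limits take 3 nuclei over the class and, like the intervals below, cover counting error only. Drd5 did not pass the filter on low counts in any comparison.

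**Figure D1:**
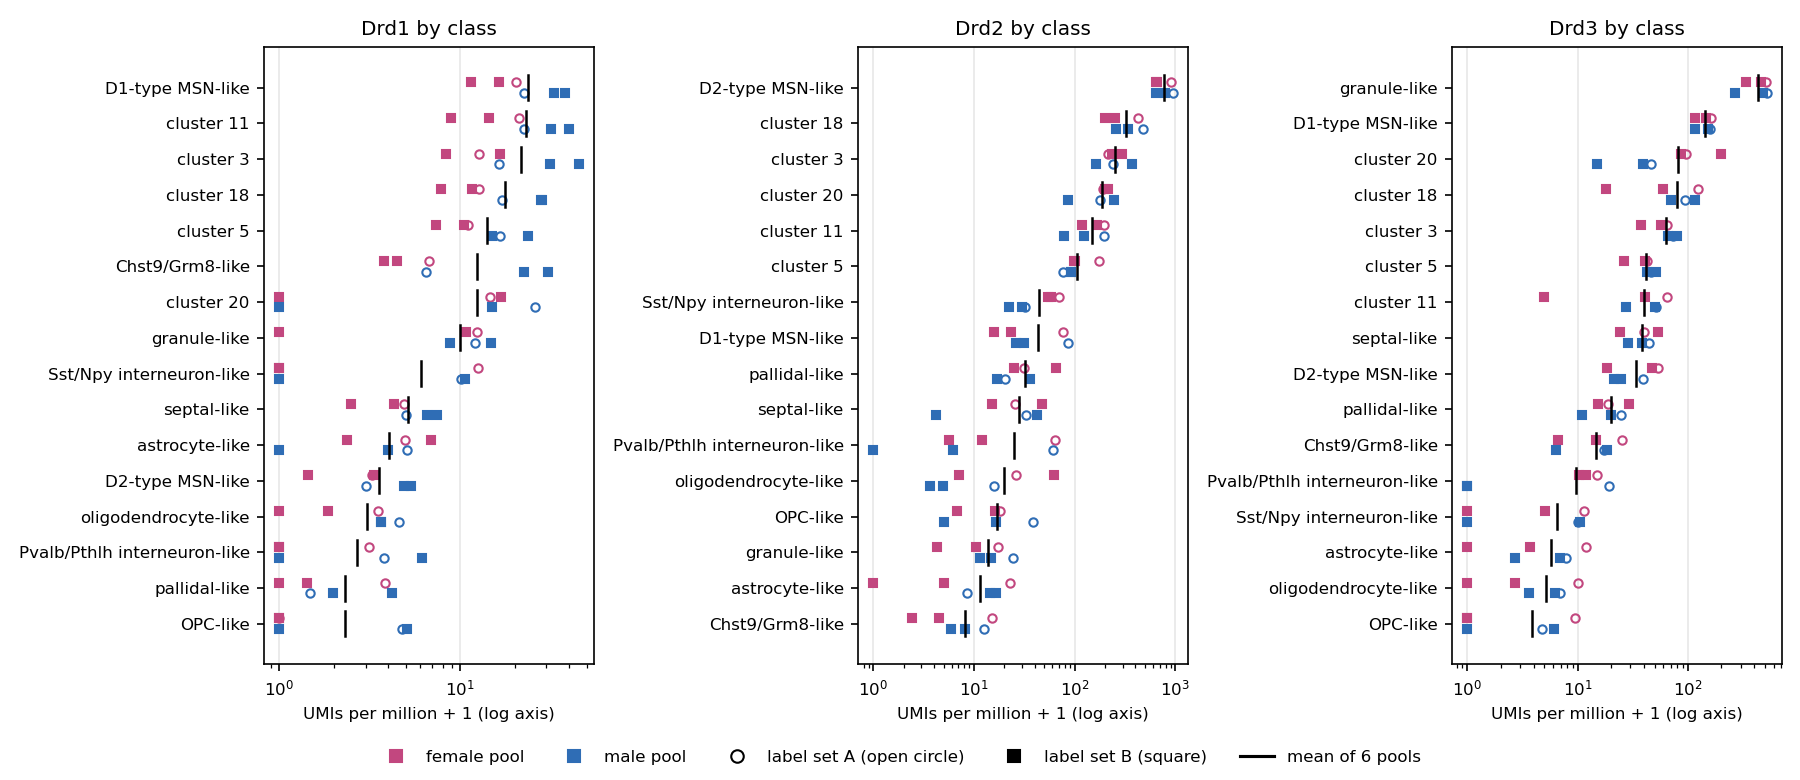
Levels of Drd1, Drd2 and Drd3 (CPM + 1, log axis) in each class with at least 20 nuclei in each library, 1 point per pool and a bar at the mean of the 6 pools. Drd2 stands highest in D2-type nuclei and Drd3 in granule-like nuclei, each with all pools above the next class, while for Drd1 the D1-type, cluster 11, cluster 3 and cluster 18 values overlap.

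Drd1, the main D1-like receptor of the striatum, is given as CPM, its UMIs divided by all UMIs of the class in a pool and multiplied by 1e6. D1-type nuclei had 10.5, 15.3 and 19.3 CPM of Drd1 in female pools 1 to 3 and 21.6, 37.1 and 31.95 CPM in male pools 1 to 3. D2-type nuclei had 0.444, 2.34 and 2.27 CPM of Drd1 in female pools 1 to 3 and 2.01, 3.90 and 4.34 CPM in male pools 1 to 3. All 6 D1-type values lay above all 6 D2-type values, with means of 22.6 ± 10.1 CPM in D1-type and 2.55 ± 1.41 CPM in D2-type nuclei (SD, n = 6 pools). In a fit over the 16 classes with library as a block (edgeR's quasi-likelihood test, Benjamini-Hochberg adjustment over 11938 genes), Drd1 was 8.82-fold higher in D1-type than in D2-type nuclei (log2 3.14, SE 0.22, adjusted p = 1.27e-22). This contrast called 5.29% of the genes tested, 3.31% higher and 1.99% lower in D1-type nuclei, and 3 of the 3 receptors that could be tested were among them.

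Drd1 did not single out the D1-type class. The mean was 22.1 ± 11.3 CPM in cluster 11, 20.8 ± 13.9 CPM in cluster 3 and 16.6 ± 8.76 CPM in cluster 18 (SD, n = 6 pools). D1-type nuclei exceeded cluster 11 in 3 of 6 pools, so these neighbours in the order of levels did not differ beyond their spread. Cluster 11 and D1-type nuclei differed in Drd1 by −0.05 on the log2 scale (SE 0.17, edgeR adjusted p = 0.936). Below them came cluster 5 with 13.1 ± 5.81 CPM, the Chst9/Grm8-like class with 11.5 ± 11.3 CPM and granule-like nuclei with 8.999 ± 4.83 CPM. Granule-like nuclei were 2.14-fold lower than D1-type nuclei in Drd1 (log2 −1.10, SE 0.25, edgeR adjusted p = 0.000131). D2-type nuclei stood among the glia, since astrocyte-like nuclei had 3.05 ± 2.11 CPM and oligodendrocyte-like nuclei 2.04 ± 1.33 CPM of Drd1.

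Drd2 encodes the D2 receptor, which acts on striatal neurons and as an autoreceptor on dopamine terminals. D1-type nuclei had 14.7, 22.3 and 76.0 CPM of Drd2 in female pools 1 to 3 and 85.9, 30.6 and 24.96 CPM in male pools 1 to 3. D2-type nuclei had 652, 642 and 914 CPM of Drd2 in female pools 1 to 3 and 948, 787 and 635 CPM in male pools 1 to 3. The groups did not overlap, and the 2 highest D1-type values were those of the set A libraries. D1-type nuclei averaged 42.4 ± 30.4 CPM and D2-type nuclei 763 ± 142 CPM (SD, n = 6 pools), an 18.3-fold lower level in D1-type nuclei (log2 −4.20, SE 0.20, edgeR adjusted p = 1.15e-33).

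After D2-type nuclei the highest levels of Drd2 were in clusters that the marker lists left unnamed or doubtful. Cluster 18 had 323 ± 107 CPM, cluster 3 had 251 ± 70.4 CPM, cluster 20 had 185 ± 54.1 CPM and cluster 11 had 147 ± 47.7 CPM (SD, n = 6 pools). Cluster 20 was shallow, with a median of 1093.5 UMIs per nucleus, and its level rests on 203 Drd2 UMIs in 124 of 808 nuclei. D2-type nuclei exceeded cluster 18 in 6 of 6 pools, while cluster 18 exceeded cluster 3 in 4 of 6. Cluster 11 had 3.40-fold more Drd2 than D1-type nuclei (log2 1.77, SE 0.21, edgeR adjusted p = 1.43e-11), a contrast that called 16.4% of genes, 8.09% higher and 8.34% lower in cluster 11. Granule-like nuclei had 12.8 ± 6.85 CPM and were 2.90-fold lower than D1-type nuclei (log2 −1.54, SE 0.35, edgeR adjusted p = 0.00014), but their level was close to that of astrocyte-like nuclei, at 10.4 ± 8.01 CPM.

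Interneurons held little Drd2 beside the D2-type class. Cholinergic-like nuclei (299), named from genes of acetylcholine synthesis and transport such as Chat and Slc5a7, had 40.2, 47.5 and 89.3 CPM of Drd2 in female pools 1 to 3 and 178, 53.2 and 19.5 CPM in male pools 1 to 3. Female pool 2 and male pool 2 had 16 and 15 such nuclei, so their values rest on 5 and 6 UMIs. With the limit lowered to 10 nuclei per library, a choice made after seeing the data, cholinergic-like nuclei were 10.3-fold lower in Drd2 than D2-type nuclei (log2 −3.37, SE 0.25, edgeR adjusted p = 1.23e-22). That contrast called 43.9% of 11987 genes, 24.4% higher and 19.5% lower in cholinergic-like nuclei. Sst/Npy interneuron-like nuclei (400) had 43.6 ± 19.2 CPM of Drd2, close to D1-type nuclei.

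Drd3 encodes the D3 receptor, the D2-like receptor with the highest affinity for dopamine. Granule-like nuclei had 333, 464 and 509 CPM of Drd3 in female pools 1 to 3 and 521, 475 and 268 CPM in male pools 1 to 3. D1-type nuclei had 115, 146 and 161 CPM of Drd3 in female pools 1 to 3 and 157, 152 and 116 CPM in male pools 1 to 3. D2-type nuclei had 17.3, 46.3 and 53.0 CPM of Drd3 in female pools 1 to 3 and 38.1, 23.9 and 20.3 CPM in male pools 1 to 3. The 3 classes were fully separate, and in each pool granule-like nuclei were highest and D2-type nuclei lowest. Granule-like nuclei averaged 428 ± 103 CPM, D1-type nuclei 141 ± 20.7 CPM and D2-type nuclei 33.1 ± 14.8 CPM (SD, n = 6 pools). Drd3 was 2.97-fold higher in granule-like than in D1-type nuclei (log2 1.57, SE 0.15, edgeR adjusted p = 3.17e-16), in a contrast that called 44.3% of genes, 24.8% higher and 19.5% lower in granule-like nuclei. D1-type nuclei had 4.24-fold more Drd3 than D2-type nuclei (log2 2.08, SE 0.16, edgeR adjusted p = 3.06e-20).

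Cluster 11 differed from the D1 type in Drd3 as in Drd2, in the opposite direction. It averaged 39.1 ± 21.3 CPM of Drd3 and was 3.38-fold lower than D1-type nuclei (log2 −1.76, SE 0.17, edgeR adjusted p = 8.35e-15). Cholinergic-like nuclei differed from D2-type nuclei in Drd3 by 0.19 on the log2 scale (SE 0.26, edgeR adjusted p = 0.595) and in Drd1 by −1.15 (SE 0.74, adjusted p = 0.209), with 3 Drd1 UMIs over 299 nuclei. Septal-like nuclei averaged 37.2 ± 10.7 CPM of Drd3, close to D2-type nuclei and cluster 11, and their order was not the same in every pool. The lowest Drd3 levels were those of glia, at 4.69 ± 3.99 CPM in astrocyte-like and 4.13 ± 3.32 CPM in oligodendrocyte-like nuclei.

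The D1-type class was made of 3 clusters, of which cluster 24 had the highest mean of Drd3. Cluster 24 had 215 ± 42.2 CPM of Drd3 in 5 pools with at least 20 of its nuclei, against 118 ± 10.4 CPM in cluster 6 (n = 6 pools) and 113 ± 28.4 CPM in cluster 7 (n = 3 pools). Drd3 was the second of the 10 leading genes of cluster 24, although it took no part in the clustering. No test was made between clusters of the class. In female pool 2, cluster 7, which is led by mitochondrial genes, held 628 of 665 D1-type nuclei, and cluster 2 held 540 of 555 D2-type nuclei. The D1-type and D2-type values of female pool 2 rest mainly on these clusters.

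**Figure D2:**
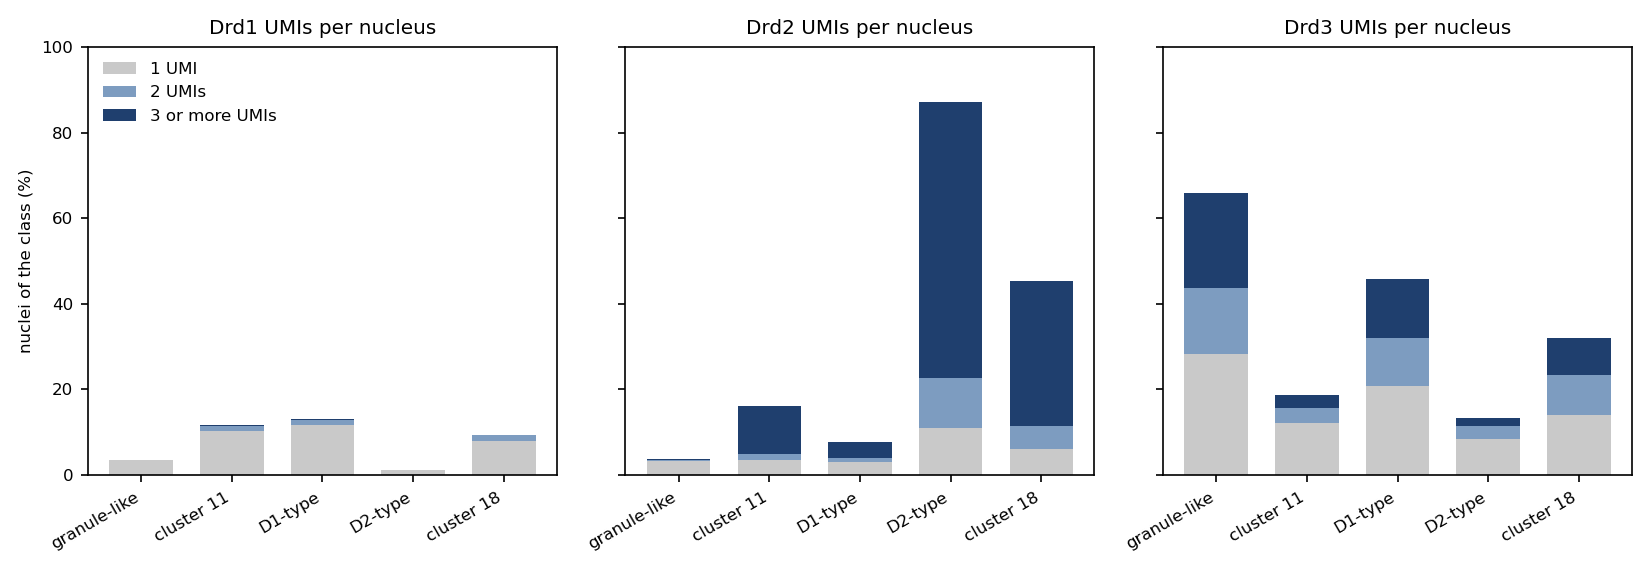
Nuclei with 1, 2 and 3 or more UMIs of Drd1, Drd2 or Drd3 as a percentage of the nuclei of granule-like, cluster 11, D1-type, D2-type and cluster 18 nuclei, all 6 libraries together. Drd1-positive nuclei carried mostly 1 UMI, whereas 2031 of 2741 Drd2-positive D2-type nuclei carried 3 or more.

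Detection, at least 1 UMI in a nucleus, depended on how many UMIs a receptor left. Drd2 was detected in 87.1% ± 6.85 of D2-type nuclei (SD, n = 6 pools), 2741 of 3143 in all, with a median of 4 UMIs in those nuclei and 3 or more UMIs in 74.1% of them. Drd1 was detected in 13.4% ± 5.79 of D1-type nuclei, 456 of 3456 in all, and 87.7% of these carried a single UMI. Absence of a Drd1 UMI is therefore no sign that a D1-type nucleus lacks the transcript. Drd3 was detected in 61.9% ± 14.3 of granule-like nuclei and 44.9% ± 8.48 of D1-type nuclei, with a median of 2 UMIs in positive nuclei of either class.

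Free RNA in droplets also leaves UMIs, and nuclei differ in depth. The median was 6002 UMIs in D1-type, 5164 in D2-type, 2736 in granule-like and 2180.5 in astrocyte-like nuclei. Each nucleus was therefore thinned to 2000 UMIs, which left out 87 D1-type, 132 D2-type, 332 granule-like and 1002 astrocyte-like nuclei. At that depth Drd2 was detected in 71.7% ± 7.76 of D2-type, 3.68% ± 1.76 of D1-type and 1.94% ± 1.68 of astrocyte-like nuclei. Among other glia, the Drd2 share was 1.86% ± 1.26 in oligodendrocyte-like nuclei (n = 5 pools). In microglia-like nuclei it was 6.79% ± 8.75 (n = 3 pools, 89 nuclei), a spread that holds the D1-type share. Drd3 was detected in 52.9% ± 8.004 of granule-like, 22.0% ± 4.81 of D1-type, 5.73% ± 2.53 of D2-type and 0.383% ± 0.470 of astrocyte-like nuclei. For Drd1 the thinned shares were 3.798% ± 1.38 in D1-type, 4.21% ± 3.08 in cluster 11, 0.409% ± 0.277 in D2-type and 0.577% ± 0.761 in astrocyte-like nuclei. The Drd1 share of D2-type nuclei and the Drd2 shares of granule-like (2.15% ± 1.34) and Chst9/Grm8-like nuclei (1.28% ± 1.05) lay within the spread of the astrocyte-like shares, and are not read as expression. At 1000 UMIs the order of the Drd1 shares was the other way, with 0.306% ± 0.246 in D2-type and 0.200% ± 0.223 in astrocyte-like nuclei, again within the spread.

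The ratios between the receptors' UMIs differed between some classes and overlapped between others. There were 0.781 to 3.98 Drd2 UMIs for each Drd1 UMI in the D1-type nuclei of the 6 libraries. In the D2-type nuclei, where Drd1 had 1 to 12 UMIs per library, there were 146 to 1470. The range was 0.333 to 2.11 in granule-like and 0 to 5.5 in astrocyte-like nuclei, each over 5 libraries with a Drd1 UMI. Both ranges overlap that of D1-type nuclei, and Drd1 had at most 18 and 8 UMIs per library there. There were 22.2 to 102 Drd3 UMIs for each Drd2 UMI in granule-like nuclei, 1.83 to 7.81 in D1-type nuclei and 0.0265 to 0.0722 in D2-type nuclei, ranges over libraries that do not overlap. Granule-like nuclei had 1 to 38 Drd2 UMIs per library. In astrocyte-like nuclei Drd3 per Drd2 was 0.111 to 0.909 over 5 libraries. The part of free RNA in these counts was not tested.

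With all pools together, most Drd2 UMIs of D1-type nuclei came from few nuclei. The 130 D1-type nuclei with 3 or more Drd2 UMIs, 3.76% of the class, held 87.8% of its Drd2 UMIs, and 1 of them carried 48. That share was 91.4% in set A and 71.4% in set B. It was lowest in female pool 2, at 43.75% with 7 such nuclei, so there most Drd2 UMIs lay in other nuclei. Among these 130 nuclei Adora2a, a defining D2-type marker, was detected in 73.8%, against 17.6% of the 136 nuclei with 1 or 2 Drd2 UMIs and 4.29% of the 3190 nuclei with none. In D2-type nuclei Adora2a was detected in 65.0%. Penk was detected in 75.4%, 35.3% and 22.2% of the same groups of D1-type nuclei, from 3 or more Drd2 UMIs to none, and Tac1, a D1-type marker, in 58.5%, 64.0% and 70.1%. The nuclei with 3 or more Drd2 UMIs had a median depth of 11884 UMIs, against 6776.5 with 1 or 2 and 5825.5 with none. They made up 5.97% of the D1-type nuclei of set A and 1.72% of those of set B. Whether they are 1 nucleus or 2 in a droplet was not tested.

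**Figure D3:**
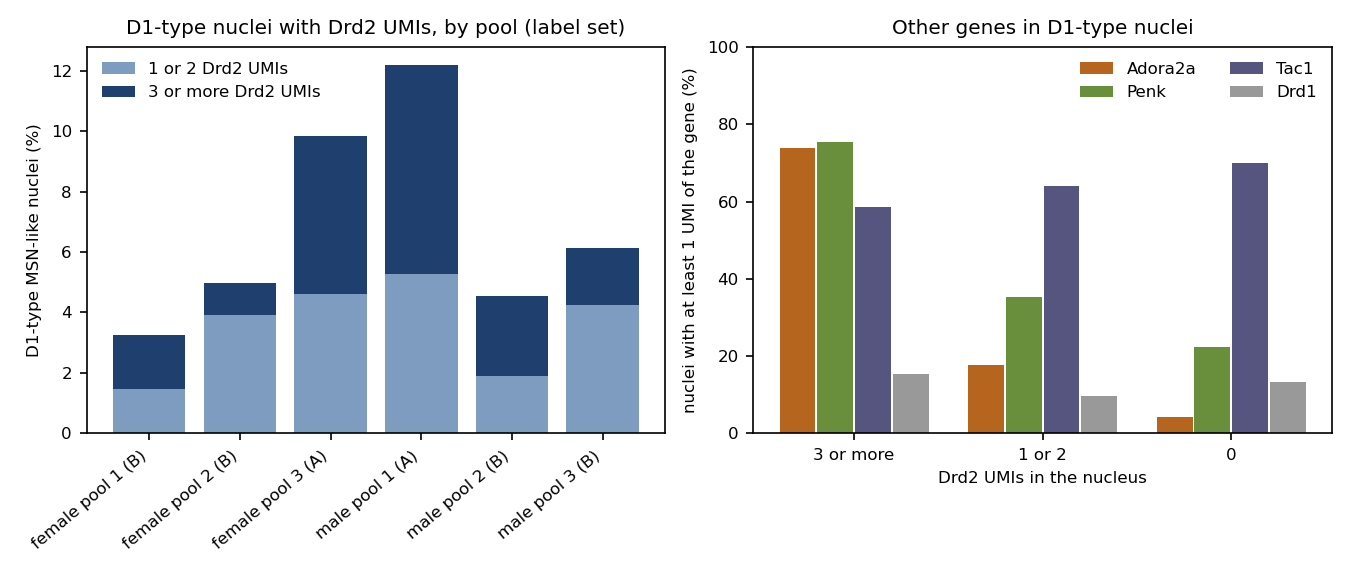
Left, D1-type nuclei with 1 or 2 and with 3 or more Drd2 UMIs as a percentage of the D1-type nuclei of each pool, with its label set. Right, percentage of D1-type nuclei with at least 1 UMI of Adora2a, Penk, Tac1 or Drd1, by the number of Drd2 UMIs, all pools together. The set A pools have the highest bars, and Adora2a and Penk were found in 73.8% and 75.4% of the nuclei with 3 or more Drd2 UMIs.

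A gate on markers narrowed this. D1-type nuclei were kept with at least 2 UMIs of D1-type markers and 0 UMIs of D2-type markers, and D2-type nuclei by the reverse rule, among all nuclei of MSN clusters. The 2158 gated D1-type nuclei had 15.3 ± 8.24 CPM of Drd2 and the 1702 gated D2-type nuclei 795 ± 178 CPM (SD, n = 6 pools). Drd1 was little moved, at 24.1 ± 11.2 CPM in gated D1-type and 2.52 ± 1.96 CPM in gated D2-type nuclei.

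In cluster 11 and cluster 18, Drd2 was also concentrated in a subset. In cluster 11, 179 nuclei (11.3%) with 3 or more Drd2 UMIs held 93.9% of its Drd2 UMIs. Of these, 68.7% had Adora2a and 4.47% had Drd1, against 9.16% with Adora2a and 12.8% with Drd1 among the nuclei with no Drd2. In cluster 18, 238 nuclei (33.9%) had 3 or more Drd2 UMIs, and 2.94% of them had Drd1, against 14.1% of the nuclei with no Drd2.

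Co-detection was tested within strata of depth, because a deeper nucleus shows more of any gene. In D1-type nuclei with a Drd1 UMI the median depth was 8069 UMIs, against 5699 in those without, and Drd3 was detected in 55.0% (251 of 456, 95% Wilson interval 50.5% to 59.5%) of the first and 44.4% of the second. Within 5 strata of depth in each library this excess was not seen: 251 nuclei held both receptors where 247 were expected without association. The Mantel-Haenszel odds ratio, averaged over 6 libraries, was 1.03 (exact sign-flip permutation test over libraries, 2-sided, p = 0.875). With 6 libraries this test cannot go below 0.03125, and 15 pairs of receptor and class were tested, so a p of 0.03125 became 0.067 after Benjamini-Hochberg adjustment. No pair had an adjusted p below 0.05.

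Drd1 and Drd2 were found together in fewer nuclei than expected in the MSN classes. In D1-type nuclei 33 held both against 49.6 expected (odds ratio 0.598, below 1 in 5 of 6 libraries, exact permutation p = 0.125, adjusted p = 0.17). The library above 1, female pool 1, held 0 such nuclei against 0.957 expected. Its ratio rests on 0.5 added to every cell of its strata. The observed number was below the expected one in every library. In D2-type nuclei 25 held both against 34.8 expected (odds ratio 0.145, below 1 in 6 of 6 libraries, exact permutation p = 0.03125, adjusted p = 0.067). Female pool 1 had 1 Drd1 nucleus there, which also had Drd2, so 1 was observed against 1 expected. Its odds ratio below 1, on which this p depends, comes from the 0.5 added. Cluster 11 had 14 nuclei with both against 35.8 expected (odds ratio 0.490, exact permutation p = 0.0625, adjusted p = 0.0938). In 2 of its 6 libraries, which held 0 such nuclei, 0.5 was added. Cluster 18 had 11 against 28.6 expected (odds ratio 0.318, exact permutation p = 0.03125, adjusted p = 0.067), with 0.5 added in 3 of 6 libraries. None of these passed the adjusted threshold. For D1-type nuclei thinned to 2000 UMIs the odds ratio was 1.24, computed without strata and with 0.5 added to every cell. Detection at that depth was 3.798% for Drd1 and 3.68% for Drd2, so few nuclei with both were expected and the direction is not read.

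**Figure D4:**
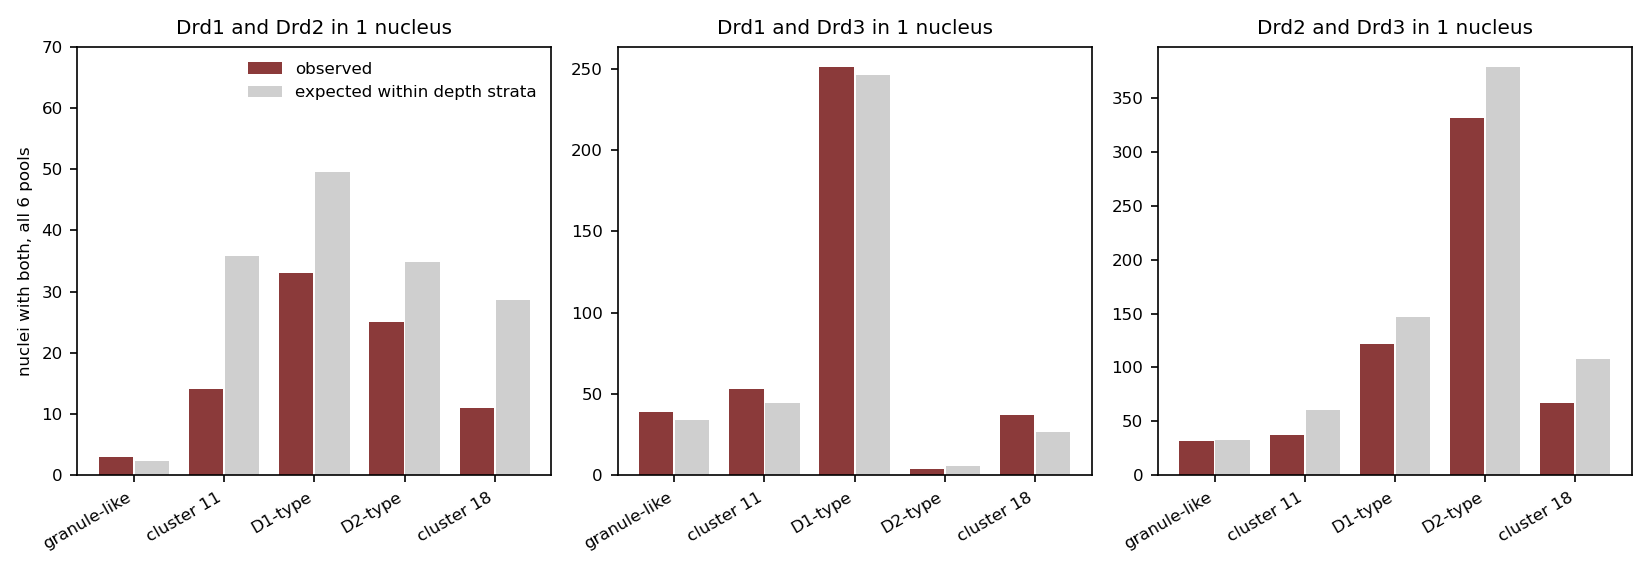
Number of nuclei with both receptors of a pair, over all 6 pools, observed, beside the number expected within strata of depth without association, for granule-like, cluster 11, D1-type, D2-type and cluster 18 nuclei. For Drd2 and Drd3 the observed bar is the lower one in D1-type (122 against 147), D2-type (332 against 379) and cluster 18 nuclei (67 against 107).

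For Drd2 and Drd3, which share a family and a coupling, the observed number was also below the expected one. In D1-type nuclei 122 held both against 147 expected (odds ratio 0.424), in D2-type nuclei 332 against 379 (odds ratio 0.400), and in cluster 18, 67 against 107 (odds ratio 0.210). The odds ratio was below 1 in 6 of 6 libraries in each of these (exact permutation p = 0.03125, adjusted p = 0.067). In D1-type nuclei the set A pools were near expectation, with 49 against 54 in female pool 3 and 53 against 54.4 in male pool 1. The set B pools held 2 to 7 nuclei with both, against 5.01 to 11.9 expected. The averaged odds ratio of D1-type nuclei thus leans on pools with few such nuclei. In cluster 11, 37 held both against 60.3 expected, with an odds ratio of 0.649 (exact permutation p = 0.25, adjusted p = 0.3125). The ratio was above 1 in 2 of 6 libraries, female pool 1 and male pool 3. These held 0 nuclei with both, against 0.357 and 1.40 expected, and their ratios rest on the 0.5 added. The observed number was below the expected one in every library. Of the D2-type nuclei with Drd2, 12.1% had Drd3, against 22.1% of those without Drd2, although the nuclei with Drd2 were deeper, with a median of 5526 UMIs against 3150. In granule-like nuclei, where Drd3 is highest, 32 nuclei had Drd2 as well against 32.7 expected (odds ratio 0.786, exact permutation p = 0.469, adjusted p = 0.541).

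Drd1 and Drd3 were found together in more nuclei than expected in clusters 18 and 11, short of the adjusted threshold. In cluster 18, 37 nuclei held both against 26.3 expected (odds ratio 2.72, above 1 in 6 of 6 libraries, exact permutation p = 0.03125, adjusted p = 0.067). Female pool 2 held 0 such nuclei with 0 expected, and its odds ratio, the highest at 7.71, comes from the 0.5 added. The 6 of 6 and this p depend on that pool. Cluster 11 had 53 nuclei with both against 44.4 expected (odds ratio 2.35, above 1 in 5 of 6 libraries, exact permutation p = 0.0625, adjusted p = 0.0938). The highest odds ratio averaged there, 9.05, was that of female pool 1. That pool held 0 nuclei with both, with 0 expected, so its value comes from the 0.5 added and raises the average. Drd1 and Drd3 in D2-type nuclei (4 observed, 5.30 expected) and Drd1 and Drd2 in granule-like nuclei (3 observed, 2.34 expected) were too sparse for their odds ratios to be read.

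The libraries allow female and male pools to be compared. Over all nuclei, the female pools 1 to 3 had 4.23, 8.37 and 7.14 CPM of Drd1, against 9.82, 16.4 and 16.7 CPM in male pools 1 to 3. The groups did not overlap, and the means were 6.58 ± 2.13 CPM in female and 14.3 ± 3.89 CPM in male pools (SD, n = 3 each). Of the genes with at least 100 UMIs, 4.81% had all female pools below all male pools, so such an order alone is not rare. With label set as a term, Drd1 was at log2 −1.004 in female relative to male pools (SE 0.30, edgeR unadjusted p = 0.00801, adjusted p = 0.641), which did not pass the threshold. This fit called 7 of 16200 genes (0.0432%). The class makeup of the pools differs, and over all nuclei, fewer Drd1 nuclei and less Drd1 per nucleus cannot be told apart.

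Within D1-type nuclei the order was the same. The female mean was 15.04 ± 4.44 CPM and the male mean 30.2 ± 7.93 CPM of Drd1 (SD, n = 3 pools each), and the 3 female values lay below the 3 male values, as did those of 3.43% of genes with at least 100 UMIs in the class. The log2 difference was −0.90 (SE 0.27, edgeR unadjusted p = 0.00738, adjusted p = 0.684), in a fit that called 7 of 11897 genes (0.0588%). The difference was uneven between the label sets: female minus male was −0.15 in set A, with 1 pool of each sex, and −1.37 in set B. Within cluster 6 alone, which avoids the cluster led by mitochondrial genes, Drd1 had 10.5, 10.5 and 17.6 CPM in female pools 1 to 3, against 22.2, 34.6 and 33.4 CPM in male pools 1 to 3. The value of female pool 2 there is a single UMI in 28 nuclei, below the floor of 3 counts. The median depth of D1-type nuclei was 7538, 3936 and 5787 UMIs in female pools 1 to 3 and 9205, 6687.5 and 4683.5 UMIs in male pools 1 to 3.

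**Figure D5:**
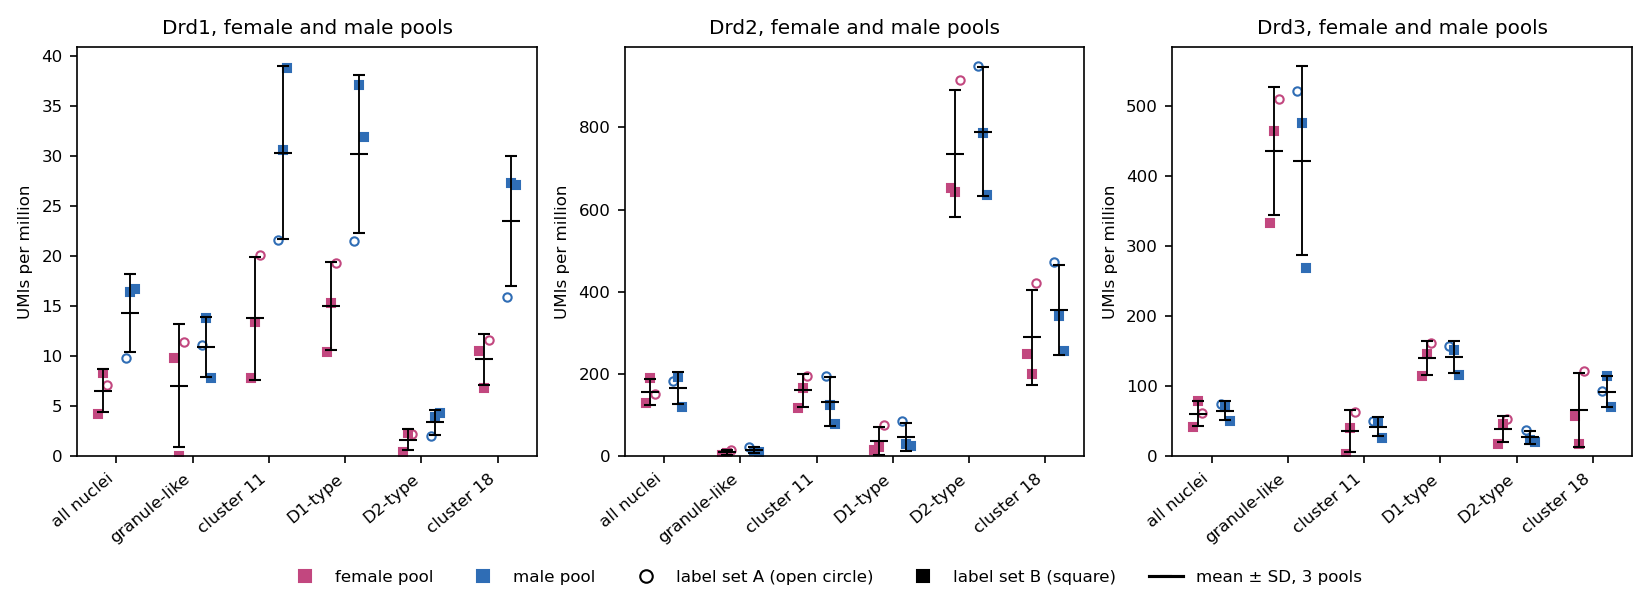
Levels of Drd1, Drd2 and Drd3 (CPM) in female and male pools over all nuclei and in granule-like, cluster 11, D1-type, D2-type and cluster 18 nuclei, 1 point per pool with the mean ± SD of 3 pools. Drd1 points of female pools lie below those of male pools over all nuclei and in D1-type nuclei, cluster 11 and cluster 18, and Drd2 and Drd3 points overlap in most panels.

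Across the 16 classes the female mean of Drd1 was the lower one in 15, and the female pools all lay below the male pools in 6: D1-type nuclei, cluster 11, cluster 18, cluster 5, septal-like and oligodendrocyte-like nuclei. Of the genes with at least 100 UMIs in the class, 3.44% had that order in cluster 11, 5.57% in cluster 18, 3.2% in cluster 5, 2.88% in septal-like and 3.01% in oligodendrocyte-like nuclei. Drd1 itself had fewer than 100 UMIs in 4 of the 6 classes, with 93 in cluster 5, 74 in cluster 18, 40 in septal-like and 17 in oligodendrocyte-like nuclei. Cluster 11 had 13.8 ± 6.13 CPM in female and 30.4 ± 8.60 CPM in male pools, and cluster 18 had 9.69 ± 2.54 CPM in female and 23.5 ± 6.51 CPM in male pools (SD, n = 3 each). The classes come from the same 6 pools and are not separate evidence. Oligodendrocyte-like nuclei had 1.12 ± 1.27 CPM in female and 2.95 ± 0.539 CPM in male pools. The part of free RNA in the difference was not tested. No share of all genes was taken for a lower female mean in 15 of 16 classes. For Drd2 the female mean was the lower one in 8 of 16 classes, with all female pools below in 0 and above in 2. For Drd3 it was the lower one in 9, with all female pools below in 2 and above in 1.

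Drd2 and Drd3 did not differ between the sexes beyond the spread of the pools in the classes where they are highest. In D2-type nuclei Drd2 averaged 736 ± 154 CPM in female and 790 ± 157 CPM in male pools (log2 −0.09, SE 0.13, edgeR adjusted p = 0.907), in a fit that called 7 of 11275 genes (0.0621%). Drd3 in granule-like nuclei averaged 435 ± 91.6 CPM in female and 421 ± 134 CPM in male pools, with no fit of sex in that class. In D1-type nuclei the log2 difference of female minus male pools was 0.00 for Drd3 (SE 0.14, adjusted p = 0.997) and −0.39 for Drd2 (SE 0.19, adjusted p = 0.693), by edgeR. In D2-type nuclei the log2 difference of Drd3 was 0.51 (SE 0.29, edgeR adjusted p = 0.77). Sst/Npy interneuron-like nuclei had 60.1 ± 8.39 CPM of Drd2 in female and 26.999 ± 5.12 CPM in male pools, from 3 to 54 UMIs per pool, and this was picked out after its values were seen and not tested.

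The signalling genes around the receptors were followed with a list of 35 genes, of which 31 passed the filter in the class fits. Between D1-type and D2-type nuclei most of them were not called: 2 of 31 were higher, 4 lower and 25 neither, and the median log2 difference was −0.02, as over all genes tested (−0.02). Gnai1, an inhibitory G protein subunit, was higher in D1-type nuclei (log2 0.81, SE 0.11, edgeR adjusted p = 8.59e-09), as was Rgs4, which shortens G protein signals (log2 0.92, adjusted p = 0.0203). Ddc, the decarboxylase that makes dopamine from its precursor, had 24.4 ± 7.21 CPM in D1-type and 71.4 ± 8.79 CPM in D2-type nuclei (log2 −1.52, edgeR adjusted p = 2.98e-14). Rasgrp2 was lower as well (log2 −0.42), and Gnas was called lower with at most 0.348 CPM in any D1-type and 0.444 CPM in any D2-type pool, too few counts for a fold. The cyclase Adcy5, the phosphodiesterases and the kinase and phosphatase group had no called member. These list genes were free to take part in the clustering, so their calls describe the classes.

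Of the 31 list genes 6 were higher and 16 lower in granule-like than in D1-type nuclei and 9 were not called, in the contrast that called 44.3% of all genes. The list had a median log2 difference of −0.41, against 0.08 over all genes tested. All 4 genes of the cyclase and phosphodiesterase group were lower, among them Pde10a, which breaks down cyclic nucleotides in MSN, with 310 ± 150 CPM in granule-like and 3148 ± 765 CPM in D1-type nuclei (log2 −3.35, edgeR adjusted p = 4.4e-24). Ppp1r1b, which encodes DARPP-32, a phosphatase inhibitor downstream of dopamine, was lower by log2 −1.46 and Arrb1, a beta-arrestin, by −1.97. All 3 potassium channel genes that G proteins open were higher: Kcnj6 (log2 5.91), Kcnj3 (log2 3.32) and Kcnj9 (log2 0.61). Kcnj3 had 492 ± 50.6 CPM in granule-like and 49.9 ± 14.6 CPM in D1-type nuclei. Pde10a and Ppp1r1b are among the general MSN markers used to name classes.

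In cluster 11, 5 of 31 list genes were higher and 8 lower than in D1-type nuclei, where 16.4% of all genes were called, 8.09% higher and 8.34% lower. Kcnj3 was higher (log2 1.65, edgeR adjusted p = 2.04e-07), as was Maob, a dopamine-degrading oxidase (log2 1.55). Ddc (log2 −1.89), Rasgrp2 (log2 −1.32), the phosphodiesterase Pde1b (log2 −1.12) and Adcy5 (log2 −0.51) were lower. Between cholinergic-like and D2-type nuclei 7 of 31 were higher and 19 lower, where 43.9% of all genes were called, 24.4% higher and 19.5% lower. All 4 cyclase and phosphodiesterase genes were lower there, as was Gnal, the stimulatory G protein subunit of striatal neurons, at 329 ± 90.8 CPM in cholinergic-like and 1034 ± 111 CPM in D2-type nuclei (log2 −1.81, edgeR adjusted p = 1.11e-19).

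Between female and male pools no gene of the signalling list was called, at edgeR's adjusted p below 0.05: 0 of 33 over all nuclei, 0 of 31 in D1-type and 0 of 30 in D2-type nuclei. At an unadjusted p below 0.05 there were 2, 3 and 4 of them in these fits, beside 7.36%, 7.04% and 6.31% of all genes tested, and DESeq2 also called 0, of 35, 27 and 35 list genes with an adjusted p. The median log2 difference of the list was 0.04 over all nuclei, 0.00 in D1-type and −0.00 in D2-type nuclei, against −0.03, −0.02 and −0.01 over all genes tested. Arrb1 was the 1 gene below the unadjusted threshold in all 3 fits, at log2 0.34 over all nuclei (SE 0.13, edgeR adjusted p = 0.641), 0.30 in D1-type nuclei (SE 0.12, adjusted p = 0.684) and 0.37 in D2-type nuclei (SE 0.13, adjusted p = 0.767), values of female relative to male pools that did not pass the test.

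The genes most like each receptor in their pattern over the 16 classes were found by Pearson correlation of log2(mean CPM + 1) among 12336 genes. The correlations are descriptions across classes of the same libraries. Hpcal4, a neuronal calcium sensor, was most like Drd1 (r = 0.89), followed by Akap11, Il20ra, Nab2 and Eftud2 (r from 0.86 to 0.87). For Drd2 it was Ankk1 (r = 0.89), then Oprd1, the delta opioid receptor, Il10ra, Pla2r1 and Adora2a (r from 0.87 to 0.89). Ankk1 had its highest level, 13.5 CPM, in D2-type nuclei, and it is the next protein-coding gene after Drd2 in the RefSeq table of the assembly GRCr8. Whether reads of 1 were counted for the other was not tested. For Drd3 it was Gpr26 (r = 0.92), then Mctp1, Htr4, a serotonin receptor, Npy5r, a neuropeptide Y receptor, and Prkar2b, a regulatory subunit of protein kinase A (r from 0.89 to 0.92). All 5 had their highest level in granule-like nuclei, Htr4 with 1528 CPM. Among the receptors themselves r over the 16 classes was 0.68 for Drd1 and Drd3 and 0.38 for each of the other pairs.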

How the data were processed

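The deposited values are UMI counts of each gene in each barcode, whole and not normalized, made with Cell Ranger 4.0.0 per the file headers. The submitters' processing notes name the rat build rn6, and per the labels a 10x Genomics 3' kit was used, with 11 cycles of cDNA amplification. The annotation release and whether intronic reads were counted are not given in the sources used here.

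Barcodes were kept from 500 UMIs and 300 genes upwards where mitochondrial UMIs were under 5% (37456 of 41974). Scrublet in scanpy 1.11.5 marked 0% to 1.96% by its own threshold, so 0.8% per 1000 nuclei was removed by score instead (2.30% to 13.2%), which left 34362 nuclei. Leiden clustering was run without the receptors, sex-linked and mitochondrial genes. A cluster was named when at least 3 markers of a list exceeded the other nuclei by log2 0.5. Counts were summed per class and library and fitted with edgeR 4.0.16 (quasi-likelihood test, TMM scaling, filter on low counts, R 4.3.3). Sex was fitted with the label set, and classes in 1 fit with library as a block. An adjusted p below 0.05 is a call. Co-detection used 5 strata of depth per library. Where the numerator or denominator of a library's Mantel-Haenszel odds ratio summed to 0, 0.5 was added to every cell of each stratum. Thinned nuclei were compared without strata, with 0.5 added to every cell.

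Named genes are the receptors, the signalling list (1 member is counted but not reported here) and the 5 genes most like each receptor, among genes with at least 10 CPM in 1 class. The receptors, the lists and the tests were chosen with earlier results of these data known. Alternatives were another scaling, no filter, DESeq2 1.42.0, nuclei with at least 1000 UMIs, doublets kept, a replicate block and leaving out each library. Gated nuclei were a further one, for D1-type against D2-type nuclei only. Simulated data were used to test the fit of sex in D1-type nuclei and a fit of D1-type and D2-type nuclei alone. The other edgeR fits were not tested in this way.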

Additional observations from a re-analysis of the deposited data

How the results depend on the processing

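Under every alternative run, Drd1 and Drd3 stayed higher and Drd2 lower in D1-type than in D2-type nuclei past the threshold. Against D1-type nuclei, the calls of Drd2 and Drd3 in cluster 11 and of all 3 in granule-like nuclei also stayed. These 2 contrasts were not run on gated nuclei, where only D1-type and D2-type nuclei were fitted. Gated D1-type nuclei had 15.3 ± 8.24 CPM of Drd2, close to granule-like nuclei at 12.8 ± 6.85 CPM. The log2 difference of Drd2 between D1-type and D2-type nuclei ranged from −5.86, in gated nuclei, to −4.04. Drd1 of female against male pools was called under none, with log2 from −1.34 to −0.66 over all nuclei and from −1.40 to −0.66 in D1-type nuclei (lowest adjusted p 0.0638, edgeR without a filter). Counts of genes called did move. Between the sexes the 7 genes called over all nuclei became 11 without a filter and 17 with DESeq2, and 3 to 11 with 1 library left out (3 without male pool 3, 11 without female pool 1). In D1-type and D2-type nuclei the 7 genes called became 54 and 56 without a filter and 7 to 9 with 1 library left out. Between D1-type and D2-type nuclei 632 genes were called in the shared fit of the classes. In gated nuclei, with only these types fitted, 1138 were called. The gate and the classes fitted changed together, so their parts in this rise cannot be told apart. Without the gate, leaving out 1 library gave 510 to 562 genes called between D1-type and D2-type nuclei. For cluster 11 it gave 1550 to 1970 (1962 with all libraries). For granule-like nuclei it gave 4289 to 5189 (5286), and for cholinergic-like nuclei 4387 to 5229 (5263). The causes were not tested.

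With replicate number as a block in place of label set or library, the sex fits called 3 genes over all nuclei, 1 in D1-type and 3 in D2-type nuclei. The class fits called 224 genes between D1-type and D2-type nuclei, 885 for cluster 11 and 3211 for granule-like nuclei. The numbers do not pair the libraries: over 16200 genes same-numbered libraries had correlations of deviations of −0.770, 0.260 and −0.632, and under numbers 1 and 3 the female and male libraries belong to different label sets.

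Thinning to 2000 UMIs turned the odds ratio of Drd1 and Drd2 in D1-type nuclei to 1.24 and that of Drd1 and Drd3 to 0.959. Leaving out 1 library gave 0.960 to 1.14 for Drd1 and Drd3, with values under 1 without female pool 2, female pool 3 or male pool 3. Thinning to 1000 UMIs lowered detection to 1.92% for Drd1 in D1-type, 48.4% for Drd2 in D2-type and 33.1% for Drd3 in granule-like nuclei. Depth thus sets each share of nuclei, and Drd1, with mostly 1 UMI per positive nucleus, and Drd5 are the receptors it limits most among these 4.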
